A study of Mus musculus with 2 samples.

Results

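The genes examined here make cholesterol and its isoprenoid precursors, sense and move cholesterol, and make fatty acids under the same transcription factors. A list of 36 genes was taken by symbol, and a gene was measured where at least 1 probe set of the array carried its symbol and no other. That held for 34 of the 36, out of 18193 genes measured in all. Acat2 and Soat1 therefore have no expression value here and enter only the promoter counts. The genes were chosen by name with the signal ratios of these arrays already known, so their values are a description and no test is given. A probe set is a group of short probes meant to read a transcript, and some may also match other transcripts. For each gene the values are those of the brightest probe set by mean signal, with the others as a check.

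The cells were ATDC5, a mouse chondrogenic cell line. All were starved of serum and received cycloheximide (CHX), which blocks protein synthesis, at 10 µg/ml for 30 min. The CHX+Nell-1 cells then received recombinant human Nell-1, a secreted protein with bone-forming activity, at 100 ng/ml for another 30 min, and the CHX+PBS cells received PBS for the same time. Each group has 1 array, so a ratio compares 2 RNA samples of 1 cell line, there is no replicate check, and no p-value is given. The aim stated for the comparison was to find genes that respond without new protein. CHX was present in both groups, so its effect alone was not measured.

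Sterol regulatory element binding proteins, or SREBPs, are transcription factors made as precursors in the endoplasmic reticulum. When sterols are scarce, the escort protein SCAP carries them to the Golgi, where proteases release the active part, which enters the nucleus and switches on genes of cholesterol and fatty acid synthesis. When sterols are plentiful, INSIG proteins hold SCAP and the precursor back. Growing cartilage cells need sterols for membranes, and cholesterol is also attached to Hedgehog proteins, which act in the growth plate.

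Both arrays had a 2% trimmed mean of 500.0. Among probe sets above the median signal, the scatter of log2 ratios was smaller in bins of higher signal. All 34 measured genes lay above the median signal of 64.3, the lowest at a mean of 139 (Abcg1), so the filter on low signal removed none of them. The robust SD of the log2 ratio, a measure of scatter over all probe sets of like signal, was between 0.21 and 0.43 in the signal bins that hold these genes. It mixes noise with real differences. Actb differed by a log2 ratio of -0.07 (27786 with Nell-1, 29110 with PBS) and Hprt by 0.34 (6004 and 4734). Of 10 chondrocyte markers 7 lay above the median signal, among them Sox9 and Col2a1, while Matn1, Comp and Hapln1 lay below it on both arrays. The summed signal of the 10 was 5717 with Nell-1 and 6049 with PBS. Summed over 5 adipocyte markers it was 678 with Nell-1 and 711 with PBS, over 6 macrophage markers 493 and 476, and over 4 hepatocyte markers 100.2 and 145. A sum mostly follows its brightest markers, such as Sox9 (2577 and 3375) and Pparg (608 and 598). At least 1.5-fold higher were 2 chondrocyte, 2 macrophage and 1 hepatocyte marker. That much lower were 3 chondrocyte, 2 adipocyte and 1 hepatocyte marker. Over all genes the shares were 13.1% and 19.0%. Of these markers only Sox6 and Acan, both higher, lay above the median signal. Of the 5 adipocyte markers 2 lay above the median signal (Pparg and Fabp4), and of the 6 macrophage markers 4 did (Csf1r, Cd68, Adgre1 and Lyz2). Adipoq, Cidec and Lep were below it on both arrays, as were Ptprc, Itgam and all 4 hepatocyte markers, of which Alb had 32.5 and 15.1. RNAs added before labelling differed between the arrays, with a median log2 ratio of -0.49 over 24 probe sets, all lower with Nell-1, and their part in the ratios below was not tested.

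Most genes of the group had like signals on both arrays. Of 34 genes 2 were at least 1.5-fold higher with Nell-1 (Idi1 and Lrp8), 1 was at least 1.5-fold lower (Tm7sf2) and 31 were neither. Among all 11600 genes above the median signal 4.56% were that much higher and 7.53% that much lower, and among the 4527 genes inside the interquartile range of the members' mean signal, 710 to 4678, it was 2.10% and 1.66%. Counts of 2 and 1 in 34 are 5.88% and 2.94%, and a single gene more or fewer would move either by 2.94 percentage points. The median log2 ratio was 0.02 for the group, with a range from -0.64 to 0.67, and -0.03 for all genes above the median signal. Ratios above 0 were found for 22 of the 34 (64.7%), against 45.8% of all genes above the median signal and 49.5% of genes of like signal. In bulk RNA, fewer cells of a type and less RNA per cell cannot be told apart.

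**Figure D1:**
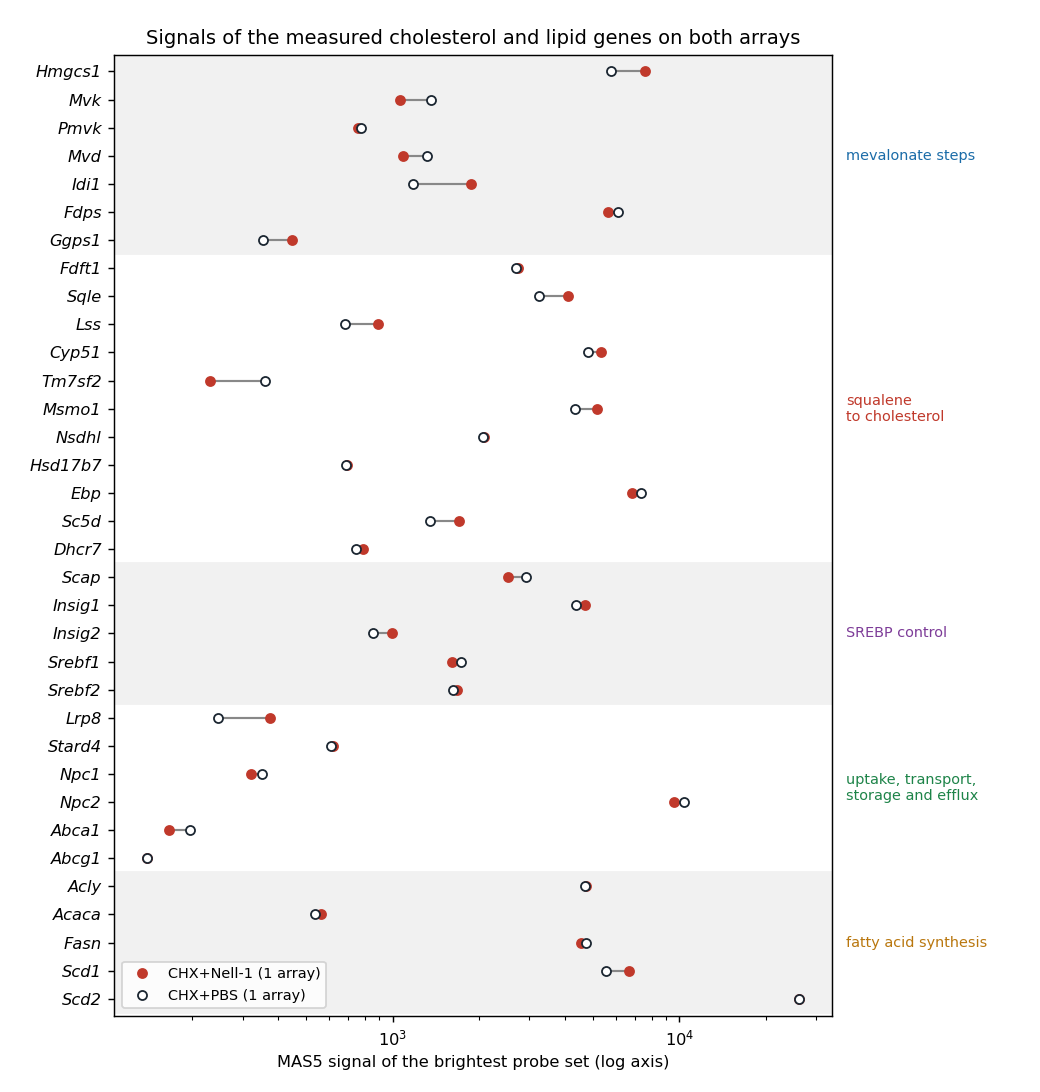
Signals of the 34 measured genes on the CHX+Nell-1 array (filled) and the CHX+PBS array (open), brightest probe set, on a log axis, ordered by role. The gaps of Idi1, Tm7sf2 and Lrp8 are the widest, and most of the other pairs lie close together.

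The mevalonate enzymes, which turn acetyl units into the isoprenoid building blocks, held the highest ratio of the list and were mixed in direction. Of 7 measured, 3 were higher with Nell-1 and 4 lower, with a median log2 ratio of -0.03. Idi1, the isomerase that interconverts the basic isoprenoid units, had a signal of 1873 with Nell-1 and 1178 with PBS, a ratio of 1.59-fold. Its second probe set had 1808 with Nell-1 and 919 with PBS, 1.97-fold higher. Both probe sets therefore lay on the same side by more than 1.5-fold, and 1.34% of the 2920 genes in its signal bin had a ratio as high as that of the brightest.

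Hmgcs1, the synthase that makes HMG-CoA at the entry to the pathway, had 7568 with Nell-1 and 5792 with PBS, 1.31-fold higher. On its next 3 probe sets by brightness the signals were 7453, 6685 and 1224 with Nell-1, and 5018, 5120 and 906 with PBS, which gives log2 ratios of 0.57, 0.38 and 0.43. These 4 readings lay between 0.38 and 0.57 and none reached 1.5-fold. The dimmest had 82.6 with Nell-1 and 94.3 with PBS, on the other side of 0. The brightest is of the _x_at type, as it is for Fdft1, Hsd17b7 and Acly, whose probes may also match other transcripts. In the signal bin of Hmgcs1 6.05% of 2924 genes had a ratio as high.

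Ggps1, which makes the geranylgeranyl group that anchors small GTPases to membranes, had 444 with Nell-1 and 354 with PBS on its brightest probe set, a log2 ratio of 0.33. The next 2 by brightness were also higher, with log2 ratios of 0.64 and 0.48, and the dimmest was lower at -0.22. Mvk, the mevalonate kinase, had 1060 with Nell-1 and 1357 with PBS, a log2 ratio of -0.36, but its second probe set gave 0.25, so its direction is not settled. Mvd, the decarboxylase that follows the kinases, was lower on both probe sets, at -0.28 and -0.13. Pmvk, the second kinase, and Fdps, the farnesyl diphosphate synthase, were close to 0 at -0.03 and -0.11, and Pmvk was above 0 after median centring.

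The upstream sequences of the 3 mevalonate genes with ratios above 0, and of Tm7sf2, the gene with the lowest ratio of the list, are shown. At promoters of their target genes SREBPs act together with NF-Y, a factor that binds CCAAT, and Sp1, which binds GC boxes. Binding to the sequences shown was not measured. Each is the 250 bases before the annotated start in RefSeq, build GRCm38.p6, written 5′ to 3′ on the gene's strand. Idi1 is at chr13:8885356-8885605 (plus strand), Hmgcs1 at chr13:119690101-119690350 (plus), Ggps1 at chr13:14063489-14063738 (minus) and Tm7sf2 at chr19:6067851-6068100 (minus). Capitals mark matches on either strand to TCACNCCAC (a sterol regulatory element), CCAAT (NF-Y), GGGCGG (Sp1) or CACGTG (E-box).
Idi1: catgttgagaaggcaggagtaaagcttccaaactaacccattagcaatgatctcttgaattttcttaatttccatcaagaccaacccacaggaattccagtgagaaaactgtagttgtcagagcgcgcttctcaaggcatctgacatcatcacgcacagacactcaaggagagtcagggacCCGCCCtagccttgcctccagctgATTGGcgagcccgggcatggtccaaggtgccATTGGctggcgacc
Hmgcs1: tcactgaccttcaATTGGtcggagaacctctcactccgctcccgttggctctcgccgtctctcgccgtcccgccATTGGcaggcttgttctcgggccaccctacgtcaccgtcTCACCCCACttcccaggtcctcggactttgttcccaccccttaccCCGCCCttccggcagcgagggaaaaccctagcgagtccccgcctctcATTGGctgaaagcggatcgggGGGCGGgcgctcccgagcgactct
Ggps1: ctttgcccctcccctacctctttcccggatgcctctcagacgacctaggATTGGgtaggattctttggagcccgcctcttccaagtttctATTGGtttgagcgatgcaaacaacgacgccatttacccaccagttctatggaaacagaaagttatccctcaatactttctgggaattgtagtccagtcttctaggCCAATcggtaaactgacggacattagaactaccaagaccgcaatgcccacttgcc
Tm7sf2: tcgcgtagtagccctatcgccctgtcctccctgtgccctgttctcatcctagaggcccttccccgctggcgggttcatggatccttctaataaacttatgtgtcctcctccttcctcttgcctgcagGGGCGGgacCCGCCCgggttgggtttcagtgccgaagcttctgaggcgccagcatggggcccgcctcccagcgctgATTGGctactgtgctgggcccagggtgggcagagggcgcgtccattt

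Each of these 4 has a CCAAT match, read here as ATTGG or CCAAT, close to the start. It lies 45 bases upstream in Idi1 and in Hmgcs1, 55 in Ggps1 and 47 in Tm7sf2. Further CCAAT matches in the bases shown lie at 14 in Idi1, 176 and 237 in Hmgcs1, and 160 and 201 in Ggps1. Hmgcs1 alone also matched the sterol element, 137 bases upstream. Ggps1 matched CCAAT only. The gene with a ratio below 0, Tm7sf2, therefore shares the NF-Y letters with the 3 above 0. A match is a run of letters, not a site shown to be bound. Only exact matches to these letters were searched, so a window without one may still hold a variant of the element.

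Across the list, promoter windows running from 250 bases before the start to 50 after it were found for 28 of the 36 genes, 6 of them with several windows. A CCAAT match lay in 23 of 28 (82.1%), against 43.3% of 9418 genes above the median signal and 41.1% of all 27025 genes with a window. Among the enzymes of both synthesis groups it lay in 15 of 16, with Acat2 the exception, and in 8 of the 12 other genes. Of 49 CCAAT matches 30 (61.2%) lay in the 100 bases before the start, in 19 genes, against 48.4% of the matches in genes above the median signal and 43.6% of those in all genes with a window. GGGCGG was in 23 of 28 (82.1%), against 69.3% of genes above the median signal, and CACGTG in 6 of 28 (21.4%), against 11.8%. TCACNCCAC was in 1 of 28 (3.57%), against 1.39%. No 2 different motifs overlapped in these windows. All 3 windows of Lrp8, the gene with the second-highest ratio, held none of the 4 motifs.

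**Figure D2:**
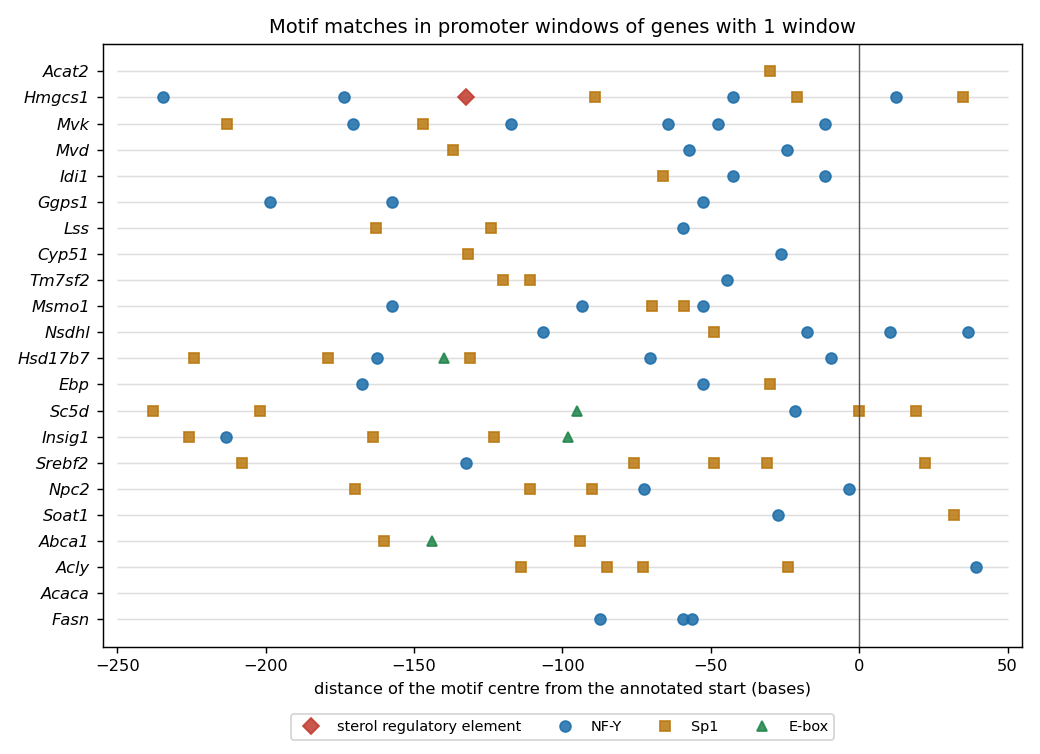
Positions of motif matches from 250 bases before to 50 after the annotated start for the 22 genes of the list with 1 promoter window, ordered by role. NF-Y matches (circles) lie on both sides of 100 bases before the start, and the sterol element (diamond) is seen in Hmgcs1 alone. Acat2 and Soat1 have a window but no expression value.

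The 3 mevalonate genes with ratios above 0, Idi1, Hmgcs1 and Ggps1, are all on chromosome 13 in the promoter table. They were the 3 placed there among 26 measured genes of the list with a promoter window. The grouping by sign used the brightest probe sets after the ratios were known, so the shared chromosome was not tested. Genes of that chromosome above the median signal had a median log2 ratio of 0.03 (376 genes, 54.3% above 0), while the medians of the chromosomes analysed here, those with at least 50 such genes in the promoter table used, ran from -0.09 to 0.03.

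Of 11 measured enzymes from squalene to cholesterol, none was at least 1.5-fold higher with Nell-1 and 1 was at least 1.5-fold lower. Ratios above 0 were found for 9 of the 11 (81.8%), against 45.8% of all genes above the median signal and 49.5% of genes of like signal, with a median log2 ratio of 0.08. Of the 9, Fdft1, Nsdhl, Hsd17b7 and Dhcr7 were at 0.08 or less, and Fdft1 was below 0 after quantile normalization. Tm7sf2, a sterol reductase, had 230 with Nell-1 and 359 with PBS, 1.56-fold lower. It has 1 probe set, so no second reading exists, and 3.87% of 2427 genes in its signal bin were as low. With the log2 ratios centred on their median it was at -0.58, just short of 1.5-fold.

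Sqle, the squalene epoxidase that is a control point of the pathway, had 4080 with Nell-1 and 3248 with PBS, a log2 ratio of 0.33. Sc5d, a late desaturase, had the same log2 ratio of 0.33 (1703 with Nell-1, 1353 with PBS), and its second probe set gave 0.29. Its dimmest probe set gave -0.87, from 62.6 with Nell-1 and 114 with PBS. Lss, which closes squalene epoxide into lanosterol, was at 0.37 on its brightest probe set (886 and 685) but at -0.31 and -1.69 on its others, so its probe sets disagree.

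Msmo1, a methylsterol oxidase, had 5159 with Nell-1 and 4341 with PBS, 1.19-fold higher. Cyp51, the lanosterol demethylase, was higher on all 3 probe sets, by log2 ratios of 0.05 to 0.16. The rest differed by less. Fdft1, the squalene synthase, was at 0.02, Nsdhl, a sterol dehydrogenase, at 0.01, Hsd17b7, a sterol ketoreductase, at 0.02, Dhcr7, the reductase of the last step, at 0.08 and Ebp, a sterol isomerase, at -0.10. For Hsd17b7 the other 3 probe sets spread from -0.32 to 0.33, around the near-zero value of the brightest.

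**Figure D3:**
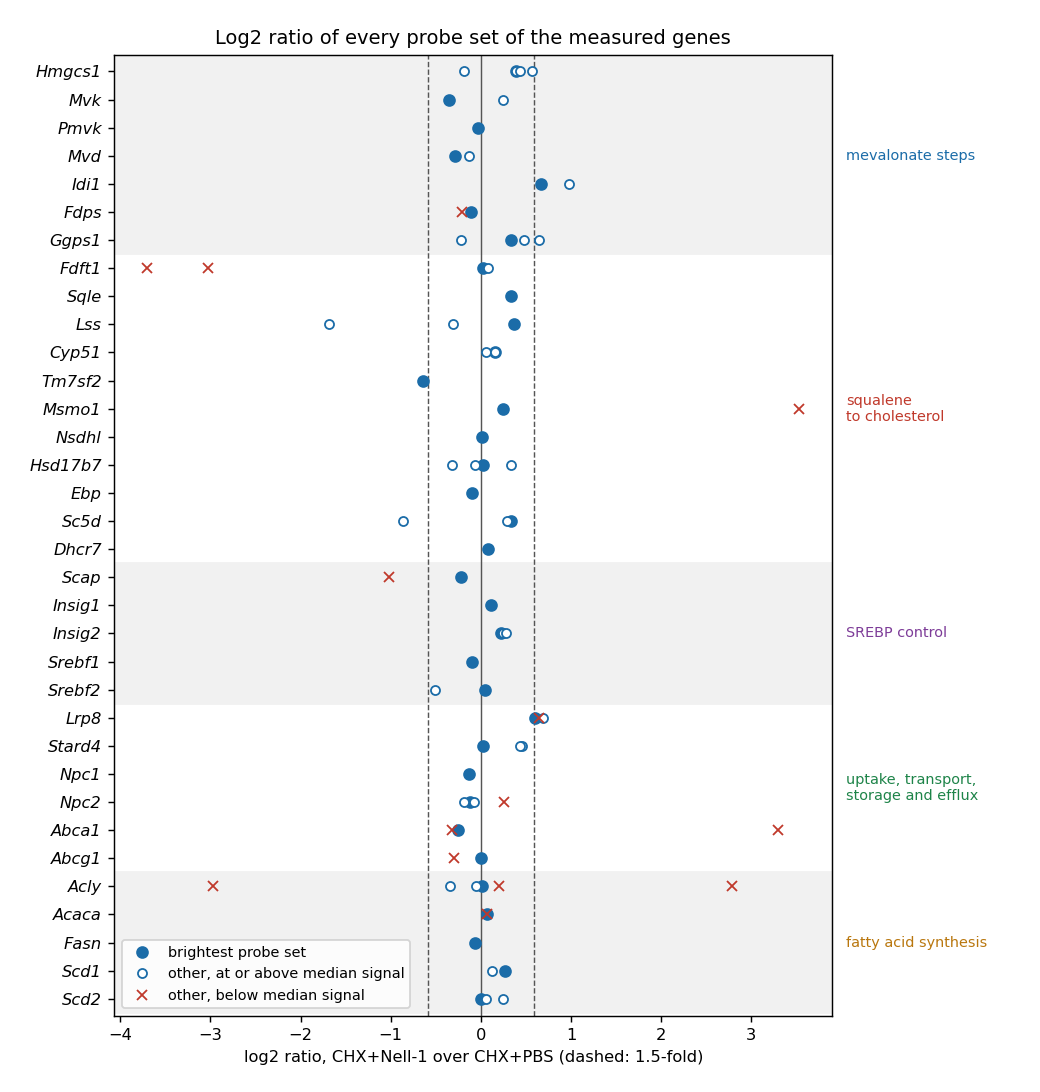
Log2 ratio (CHX+Nell-1 over CHX+PBS) of all 81 probe sets of the 34 genes. Filled circles are the brightest probe set, open circles the others above the median signal and crosses those below it. Idi1 and Lrp8 lie right of the dashed 1.5-fold line on every probe set, and ratios beyond 2 log2 units on either side are all crosses.

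None of the 5 genes that control SREBP reached 1.5-fold, and their log2 ratios ran from -0.22 to 0.23. Srebf1, which encodes the SREBP form tied mostly to fatty acid genes, had 1613 with Nell-1 and 1732 with PBS, a log2 ratio of -0.10. Srebf2, which encodes the form tied mostly to cholesterol genes, had 1677 with Nell-1 and 1623 with PBS, 0.05, but its second probe set had 798 and 1134, a log2 ratio of -0.51. Scap, the escort, was at -0.22 (2516 with Nell-1, 2927 with PBS).

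Insig1, itself a target of SREBP and a retention factor, had 4693 with Nell-1 and 4354 with PBS, 0.11. Insig2, the second retention factor, was higher on all 3 of its probe sets, with 995, 966 and 505 with Nell-1, and 851, 816 and 416 with PBS. Its log2 ratios of 0.23, 0.24 and 0.28 lay close together and were each below the robust SD of their signal bin, 0.28 to 0.33.

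Uptake and transport genes held the second-highest ratio of the list. Lrp8, a lipoprotein receptor that also binds reelin, had 374 with Nell-1 and 247 with PBS, 1.51-fold higher. Its second probe set had 118 with Nell-1 and 73.3 with PBS, 1.61-fold, and its dimmest, below the median signal, had 64.4 and 41.1, 1.57-fold. All 3 readings lay between log2 ratios of 0.60 and 0.69, although the brightest passed 1.5-fold narrowly and 4.04% of the 2427 genes in its bin were as high. When 17.9, the 25th percentile of the mean signal, was added to both signals its log2 ratio was 0.56, short of 1.5-fold.

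Stard4, a carrier of cholesterol between membranes and a target of SREBP, differed among probe sets of nearly the same brightness. The brightest gave 618 with Nell-1 and 609 with PBS, a log2 ratio of 0.02. The other pair gave 688 and 633 with Nell-1, and 503 and 468 with PBS, log2 ratios of 0.45 and 0.44. Choosing the brightest probe set thus gives the lowest of its 3 ratios.

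Npc1 and Npc2, which hand cholesterol out of the lysosome, were both slightly lower, at -0.14 (320 with Nell-1, 351 with PBS) and -0.12 (9545 and 10402). Npc2 was lower on each of its 3 brighter probe sets, with log2 ratios of -0.18 to -0.08. Abca1 and Abcg1 export cholesterol and are targets of the liver X receptors. Abca1 had 166 with Nell-1 and 197 with PBS, -0.25, and Abcg1 139 on both arrays. Both lay in a signal bin with a robust SD of 0.43, and both differences were smaller than that.

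None of 5 fatty acid genes reached 1.5-fold, and their log2 ratios ran from -0.06 to 0.26. Fasn, the fatty acid synthase, had 4530 with Nell-1 and 4729 with PBS, -0.06. Acly, which makes cytosolic acetyl-CoA, was at 0.01, but at -0.05 and -0.34 on its other probe sets above the median signal. Acaca, the carboxylase that makes malonyl-CoA, was at 0.07. Scd1, a desaturase of saturated fatty acids, had 6666 with Nell-1 and 5558 with PBS, 0.26, and 0.12 on its second probe set. Scd2, its paralogue, had 26191 with Nell-1 and 26158 with PBS, a log2 ratio of 0.00, with 0.06 and 0.24 on its other probe sets. The 5 ratios of Scd1 and Scd2 probe sets were all above 0 and under 1.5-fold.

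**Figure D4:**
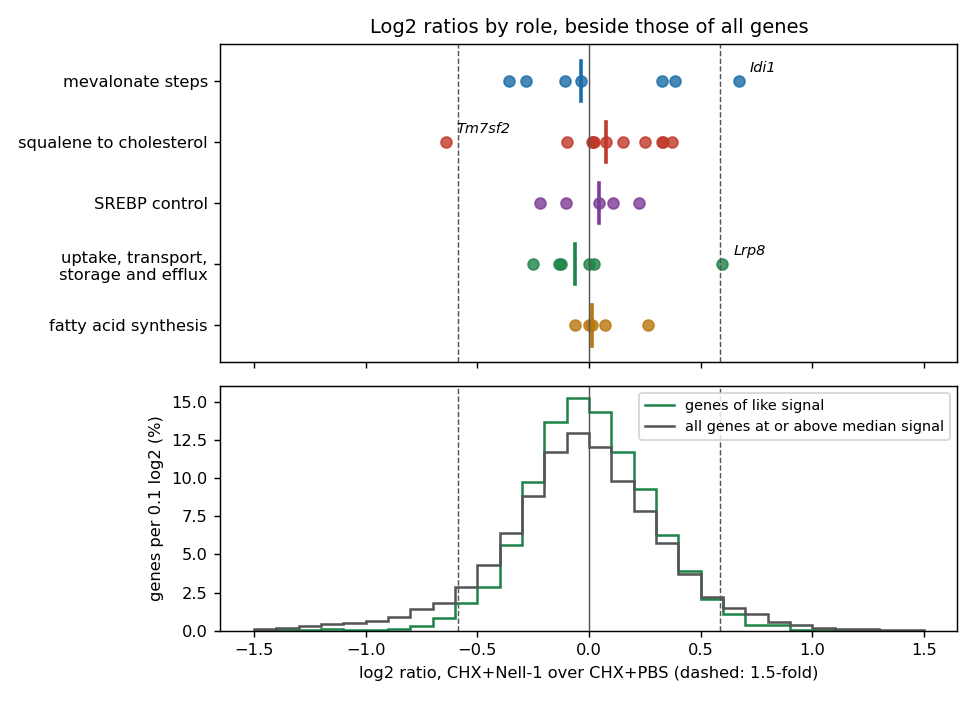
Log2 ratios of the 34 genes by role (points, with the median of each group as a bar), above the distribution of 11600 genes above the median signal and 4527 genes of like signal, in percent of genes per 0.1 log2 units. Idi1, Lrp8 and Tm7sf2 pass the dashed 1.5-fold lines, and 1.02% of the 11600 genes lie outside the plotted range.

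Agreement among probe sets differed between genes. Several probe sets passed the median signal for 18 of the genes, and of these 8 were higher on every one, 2 were lower on every one and 8 were mixed. The same split over all genes was not counted, so these numbers have no baseline. Of single probe sets above the median signal, 62.7% of those of the members had a ratio above 0, against 46.6% of all. The genes higher throughout were Idi1, Lrp8, Fdft1, Cyp51, Insig2, Stard4, Scd1 and Scd2. Fdft1, Stard4 and Scd2 were at 0.02, 0.02 and 0.00 on their brightest probe sets. Those lower throughout were Mvd and Npc2. Over the 67 of the 81 probe sets that passed the median signal, the median log2 ratio was 0.05, with 5 at least 1.5-fold higher and 3 lower. Over all 22519 probe sets above the median signal the median was -0.03, with 1344 and 1910.

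The 14 probe sets below the median signal behaved differently, with 4 at least 1.5-fold higher and 4 lower. Fdft1 had a pair at log2 ratios of -3.03 and -3.70, from signals of 9.67 and 6.03 with Nell-1 and 78.7 and 78.6 with PBS, beside brighter probe sets at 0.02 and 0.08. Msmo1 (52.4 with Nell-1, 4.53 with PBS) and Abca1 (44.5 and 4.51) had dim probe sets at 3.53 and 3.30. Acly had dim ones at 2.79 and -2.98, on both sides of 0. Over all probe sets below the median signal 29.1% were at least 1.5-fold higher and 37.6% lower, so large ratios there are common on these arrays.

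A further list held 46 genes of sterol and lipid metabolism that are not members, of which 40 were measured and 36 lay above the median signal. None of the 36 was at least 1.5-fold higher and 1 was lower, against the 4.56% and 7.53% of all genes given above. Their median log2 ratio was -0.12, with 14 above 0 and 22 below. The 1 was Ch25h, which makes the oxysterol that retains SREBP, with 63.1 with Nell-1 and 112 with PBS, 1.78-fold lower on its only probe set and near the median signal, where scatter is wide. Next to the limits were Mylip, a ligase that degrades lipoprotein receptors, at -0.55 (1835 and 2688), and Fntb, a subunit of the farnesyl transferase, at 0.56 (325 and 220), both named after their values were seen. The proteases that release SREBP, Mbtps1 and Mbtps2, were at -0.17 and -0.09.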

How the data were processed

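Each group was 1 Affymetrix mouse array. The authors deposited an intensity per probe set, a linear MAS5 signal, and the submitters' processing notes name MAS5 and Affymetrix Expression Console, with versions not given in the sources used here. Tested on the table, each array is scaled to a trimmed mean of 500.0. Detection calls were not used here.

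Of 45101 probe sets 64 were controls. The platform annotation gave 1 symbol to 34945 of the rest, several to 932 and none to 9160, and 34741 of the gene IDs were in a RefSeq table of GRCm38.p6, which changed no symbol. The measure was the log2 ratio of CHX+Nell-1 over CHX+PBS. Calls used the 1.5-fold limit stated by the submitters. The robust SD came from the median absolute deviation in 10 bins of mean signal. With 1 array per group no test was run, and the number of arrays limits the precision. The members and lists were chosen with earlier results of these data known. All members were named, as were other lipid genes above the median signal past 1.5-fold. Code was tested on simulated data with planted changes well past 1.5-fold and noise smaller than the observed scatter. That checks the code and not the calls near 1.5-fold. Promoter sequences were from RefSeq. Python 3.11.15, numpy 2.4.6, pandas 2.3.3, scipy 1.17.1 and statsmodels 0.14.6 were used. Alternatives were 3 rescalings, an added or floor value, other probe sets per gene, a signal filter and a 2-fold limit.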

Additional observations from a re-analysis of the deposited data

How the results depend on the processing

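Each group has 1 array, so no replicate could be left out. No paired analysis was possible because each group holds 1 sample. The count of 2 genes higher was 1 with 17.9 added to both signals (Idi1), 3 of 32 with Msmo1 on probe sets not ending in _x_at, _s_at or _a_at, 4 as a mean over all probe sets, 5 of 24 on the second brightest probe set and 0 at 2-fold. The count of 1 lower was 0 after median centring, 3 as a mean over all probe sets and 0 at 2-fold. The extra genes were Msmo1, Abca1, Fdft1 and Scap, through probe sets below the median signal, and Ggps1. As a mean over probe sets above the median signal, chosen after seeing the data, the counts were 2 and 1. The median log2 ratio ran from -0.02 to 0.08 over the alternatives, so its sign depends on the probe sets used. None of 170 values of single genes under 5 settings moved by more than the robust SD of its bin. That count is a weak check, because some settings could not move a value that far. The floor of 17.9 lay below every signal of these genes and left all values unchanged. Median centring shifted every log2 ratio by the same 0.06, less than the smallest robust SD of 0.21. Ratios above 0 numbered 23 of 34 after median centring, when Pmvk turned and 53.2% of genes above the median signal were above 0, 22 with loess (47.4% of genes) and 20 with quantile normalization (47.3%), when Fdft1 and Acly turned. Of genes above the median signal past 1.5-fold, 37.7% were higher as deposited, 47.7% after median centring, 44.0% with loess and 44.5% with quantile normalization.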
